A study of Mus musculus with 30 samples.

Results

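The 8 genes described here belong to lipoprotein transport in the brain, and their RNA was measured in the hippocampus of mice fed methylmercury (MeHg). They are the apolipoproteins Apoe, Clu and Apod, the receptors Lrp1, Vldlr and Sorl1, and the particle enzymes Lcat and Pltp. Each was found by its Ensembl identifier, and all 8 were present among the 21412 genes of the table. The list was drawn up with earlier results of these libraries known, in which Apoe was higher in the high-dose mice than in controls, so the members were selected on the normalized counts of the Ctr, LD and HD libraries. Every comparison of the 8 genes that uses these libraries is therefore given as a description, and tests of the 8 genes were made within the selenium groups. Marker and pathway genes are not members, and limma's results are given for them in all comparisons, though their lists too were chosen with earlier results known. Their calls and p-values are therefore no independent test.

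Male BALB/c mice, 2 to 3 weeks old at arrival and acclimatized for 5 days, were fed for 11 weeks. Ctr mice received unspiked feed, LD mice feed with 0.28 mg MeHg per kg and HD mice feed with 5 mg MeHg per kg. A parallel set of groups is labelled Se_Ctr, Se_LD and Se_HD, which the labels describe by name alone, and neither their selenium dose nor their MeHg dose is given in the sources used here. Each of the 6 groups held 5 mice, with 1 hippocampus library per mouse, so 30 libraries were used.

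Brain lipoproteins are assembled outside the blood circulation, mainly by astrocytes, and ApoE is their best-known protein. Cholesterol and phospholipid are loaded onto ApoE by membrane exporters of the ABC family, the particle is matured by enzymes that esterify cholesterol or move phospholipid, and neurons take it up through receptors of the low-density lipoprotein receptor family. Clusterin, the product of Clu, is a secreted chaperone that also rides on these particles, and apolipoprotein D is a lipocalin made by glia and by cells of the brain's coverings and vessels. APOE, CLU and SORL1 are known in human genetics for their link to Alzheimer's disease.

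The libraries held from 5768208 to 11510521 reads on genes, with a median of 9351470. The group medians ran from 7119788 in Ctr to 10159514 in HD mice. The excitatory neuron markers, which include Prox1 of dentate granule cells, were all detected in every group, and the sum of the 6 was 30433 to 68056 normalized counts per library. The choroid plexus markers ranged far more widely, from 317 to 38632 summed normalized counts over 10 genes. All 10 had positive differences both between HD and Ctr mice, where 2 passed an unadjusted limma p under 0.05 (median log2 difference 1.43), and between Se_HD and Se_Ctr mice, where 0 passed (0.73). In bulk tissue, fewer cells of a type and less RNA per cell cannot be told apart. The limma p-values set a difference against the spread between mice within groups, pooled over the groups of a fit and moderated across genes. Exact two-sided permutation tests of 5 libraries against 5 were made for the 8 genes in 3 contrasts within the selenium groups, 24 tests in all, whose smallest possible p is 0.00794 and whose p-values are given unadjusted. These tests were added after seeing the data.

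Relative to exon length, the 3 apolipoproteins stood above the receptors and enzymes. Over the 30 libraries, Apoe had a mean of 5636 ± 1085 (SD, n = 30) normalized counts per kb of exon and ranked 32nd of 21326 genes with a length. Clu had 2010 ± 372 per kb and ranked 103rd, and Apod had 486 ± 161 per kb. Sorl1 (258 ± 31.5), Lrp1 (214 ± 23.9), Lcat (175 ± 36.8) and Pltp (157 ± 35.7) followed, and each of these 4 overlapped its neighbour in this order within their SDs. The other neighbours in the order did not overlap within their SDs. Vldlr was lowest at 85.3 ± 7.53 per kb and varied least, with a coefficient of variation of 8.83% over the 30 libraries, whereas that of Apod was 33.1%. Every member was read often enough to be measured in every library, with the fewest reads, 86, for Lcat in a Ctr library.

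The genes lie on different chromosomes, so none shares a neighbourhood with another. In NCBIM37, the build of the files, Apoe (ENSMUSG00000002985) is at chr7:20281458-20284515 on the minus strand, Clu (ENSMUSG00000022037) at chr14:66587320-66600385 on the plus strand and Apod (ENSMUSG00000022548) at chr16:31296278-31314894 on the minus strand. Lrp1 (ENSMUSG00000040249) is at chr10:126975217-127058204 and Sorl1 (ENSMUSG00000049313) at chr9:41772803-41932380, both on the minus strand, and Vldlr (ENSMUSG00000024924) is at chr19:27290974-27328721 on the plus strand. Lcat (ENSMUSG00000035237) is at chr8:108463451-108467282 and Pltp (ENSMUSG00000017754) at chr2:164665018-164683211, both on the minus strand. All 8 are annotated as protein coding. Lrp1, Sorl1, Lcat and Pltp each overlap a gene on the opposite strand (Gm16217, Gm16214, Gm16156 and Ctsa), and since the strand setting of the counting is not given in the sources used here, reads of these partners cannot be told apart from theirs.

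RefSeq promoter windows of GRCm38.p6 were held for 7 of the 8 genes, all but Clu. Those of 4 genes are shown by their 250 bases upstream of the start site, since Apoe, Lcat and Pltp varied together from library to library while Apod did not. The letters searched, on both strands, were TATAAA (the TATA box), CCAAT (bound by NF-Y), GGGCGG (bound by Sp1), CACGTG (an E-box), AGGTCA (a core of nuclear receptor elements) and TGANNNNGC (the antioxidant response element), none of the matches overlapped, and matches are in capitals. The windows of Apoe (chr7:19699189-19699438), Apod (chr16:31314809-31315058), Lcat (chr8:105943403-105943652) and Pltp (chr2:164857709-164857958) are on the minus strand and are read 5′ to 3′ along the gene. For Apoe, which has 3 windows in the table, the one nearest to the gene's NCBIM37 start was taken.
Apoe: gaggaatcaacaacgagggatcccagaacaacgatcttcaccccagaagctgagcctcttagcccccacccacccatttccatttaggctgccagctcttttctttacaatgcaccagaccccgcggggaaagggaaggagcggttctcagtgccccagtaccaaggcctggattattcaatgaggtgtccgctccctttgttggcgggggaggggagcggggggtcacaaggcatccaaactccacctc
Apod: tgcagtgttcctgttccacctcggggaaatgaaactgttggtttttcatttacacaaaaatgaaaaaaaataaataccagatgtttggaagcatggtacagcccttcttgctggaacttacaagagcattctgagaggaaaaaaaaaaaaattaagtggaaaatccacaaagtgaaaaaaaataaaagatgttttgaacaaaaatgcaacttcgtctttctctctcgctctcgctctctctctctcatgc
Lcat: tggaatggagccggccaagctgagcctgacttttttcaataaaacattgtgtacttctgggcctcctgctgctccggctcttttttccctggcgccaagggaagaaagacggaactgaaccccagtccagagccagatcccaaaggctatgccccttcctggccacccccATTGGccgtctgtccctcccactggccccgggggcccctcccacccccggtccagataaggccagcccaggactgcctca
Pltp: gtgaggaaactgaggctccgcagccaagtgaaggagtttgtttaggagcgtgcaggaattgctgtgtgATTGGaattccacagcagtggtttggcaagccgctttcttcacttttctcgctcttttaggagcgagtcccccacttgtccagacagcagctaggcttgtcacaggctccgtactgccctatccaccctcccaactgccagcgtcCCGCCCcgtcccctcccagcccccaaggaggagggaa
CCAAT was found, on the opposite strand, upstream of Lcat (80 to 76 bases before the start) and of Pltp (182 to 178 bases before it), and it is in 33.8% of all 32851 windows of this length. GGGCGG was found upstream of Pltp, Lrp1 and Sorl1 and is in 32.7% of all windows. Upstream of Lrp1 and Sorl1, TGANNNNGC was found too (35.2% of all windows), and upstream of Sorl1 also CACGTG (6.02%). TATAAA and AGGTCA were in none of the 7 windows. None of the letters searched was in the windows of Apoe, Apod or Vldlr. The Apod window had a GC content of 36.4% and those of Apoe, Lcat and Pltp 57.2%, 60.8% and 57.6%, against a median of 52.4% over all windows.

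Apoe RNA was highest in HD mice. The libraries held 11221, 11451, 10076, 10000 and 8593 normalized counts in Ctr mice and 11790, 8520, 9945, 12607 and 11451 in LD mice. HD mice held 14966, 17161, 17335, 10819 and 12338. Of the 5 HD libraries, 4 were above every Ctr library, and the fifth, library 21, lay within the Ctr range. Ctr mice had a mean of 10268 ± 1142 (SD, n = 5) and HD mice 14524 ± 2896, a log2 difference of 0.48 (SE 0.15), while LD mice stood at 10863 ± 1626, a log2 difference from Ctr mice of 0.07 (SE 0.15). With each library left out in turn, the difference between HD and Ctr mice lay between 0.41 and 0.58.

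In the selenium groups the means of Apoe were close to that of Ctr mice. Se_Ctr mice held 10094, 11847, 10018, 9994 and 7667 normalized counts and Se_LD mice 8981, 11345, 10203, 10356 and 10695. Se_HD mice held 10918, 10568, 11086, 11172 and 11553, an SD of 360 against 1486 in Se_Ctr and 2896 in HD mice. The log2 difference between Se_HD and Se_Ctr mice was 0.17 (SE 0.09, 95% interval -0.02 to 0.36), and it did not pass (exact permutation p = 0.119). It passed limma's unadjusted threshold of 0.05 without Se_Ctr library 10, at 0.24, and with values centred within bins of exon length, at 0.18. It was 0.080 without Se_Ctr library 28, the lowest, and 0.081 with a score of meningeal fibroblast markers as a covariate.

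**Figure D1:**
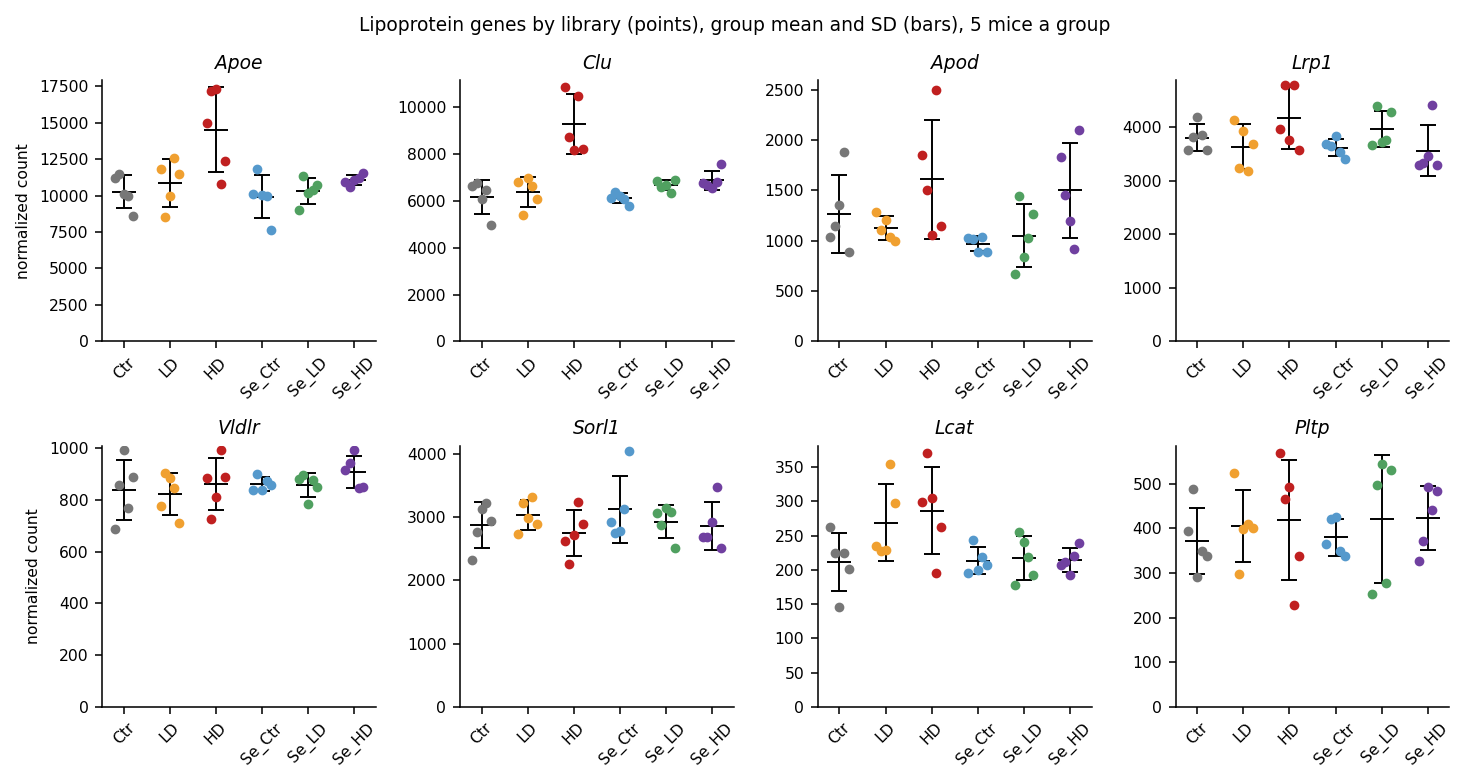
Normalized counts of the 8 genes (y axes, each starting at 0) in the 6 groups (x axes). Points are libraries, and bars are the mean and SD of 5 mice. The 5 HD points of Clu stand above all Ctr and LD points, and 4 of the 5 HD points of Apoe stand above all Ctr points.

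Clu separated the groups more cleanly than Apoe. Ctr mice held 6616, 6753, 6084, 6451 and 4965 normalized counts and LD mice 6800, 5384, 6977, 6611 and 6083. HD mice held 10845, 8736, 8148, 10482 and 8221, so that the lowest HD library was above the highest Ctr and LD libraries. The log2 difference was 0.59 (SE 0.12) between HD and Ctr mice and 0.05 (SE 0.12) between LD and Ctr mice. The order of the HD libraries was not that of Apoe, since library 21 was the second highest for Clu and the lowest for Apoe.

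For Clu, Se_HD and Se_Ctr mice were also apart, by a smaller step. Se_Ctr mice held 6116, 6374, 6184, 6090 and 5770 normalized counts and Se_HD mice 6745, 6690, 6538, 6780 and 7567, again without overlap. The log2 difference was 0.17 (SE 0.06, exact permutation p = 0.00794, the smallest possible), and limma's adjusted p over all genes was 0.99956. Groups without overlap always give that permutation p, so it only restates the lack of overlap. The share of all genes without overlap was not computed. Se_LD mice, at 6859, 6565, 6660, 6341 and 6889, overlapped the Se_Ctr range in 1 library, and their log2 difference from Se_Ctr mice was 0.13 (SE 0.06, exact permutation p = 0.0159), which missed limma's unadjusted threshold. Se_HD and Se_LD mice overlapped, at a log2 difference of 0.04 (SE 0.06, exact permutation p = 0.421). With all 30 libraries in the fit, the difference between Se_HD and Se_Ctr mice no longer passed limma's unadjusted threshold.

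Apod had a spread that differed between groups, with a coefficient of variation from 7.68% in Se_Ctr to 36.6% in HD mice. Ctr mice held 1038, 1150, 1356, 1885 and 890 normalized counts, LD mice 1284, 1104, 1206, 1035 and 995, and HD mice 1852, 1505, 1052, 2502 and 1146. The groups overlapped, and the log2 difference between HD and Ctr mice was 0.33 (SE 0.20). It was 0.15 without HD library 21, the highest, and 0.48 without Ctr library 19. Se_Ctr mice were tightly placed at 1031, 1015, 889, 1033 and 892, Se_LD mice held 666, 1445, 840, 1028 and 1264, and Se_HD mice held 1827, 1449, 1196, 917 and 2103. Of the 5 Se_HD libraries, 4 were above every Se_Ctr library. The log2 difference between Se_HD and Se_Ctr mice was 0.57 (SE 0.19, 95% interval 0.17 to 0.96, exact permutation p = 0.0317), with a limma adjusted p of 0.99956. Between Se_HD and Se_LD mice it was 0.51 (SE 0.19, exact permutation p = 0.119), with a limma adjusted p of 0.947. The latter passed limma's unadjusted threshold, but not without Se_LD library 5, at 0.36, or without Se_HD library 30, at 0.37, nor with the choroid plexus score as a covariate, at 0.39.

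Markers of meningeal fibroblasts, cells of the membranes around the brain, moved with Apod. Of 8 such markers, 6 were higher in Se_HD than in Se_Ctr mice at an unadjusted limma p under 0.05 (4.19% of all genes), all 8 differences were positive, and their summed level was 4880 to 7173 normalized counts in Se_HD and 1825 to 4430 in Se_Ctr libraries, with no marker at 0. Igf2 made up most of this sum, with a mean of 3340 normalized counts over the 30 libraries against 435 for Dcn, the next highest marker. The mean log2 level of the 8 markers relative to Ctr mice overlapped between these groups, at -0.55 to 1.12 in Se_HD and -0.95 to -0.20 in Se_Ctr libraries. Over the 30 libraries, Pearson's r between Apod and the mean log2 level of these markers was 0.86, and 0.84 after each group's mean was removed, which is a description over libraries that share preparation and depth. With the marker score as a covariate, an alternative chosen after seeing the data, the log2 difference of Apod between Se_HD and Se_Ctr mice was 0.099 and that between Se_HD and Se_LD mice -0.064, and neither passed. Clu between Se_HD and Se_Ctr mice was 0.13 in the same fit and did not pass either.

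**Figure D2:**
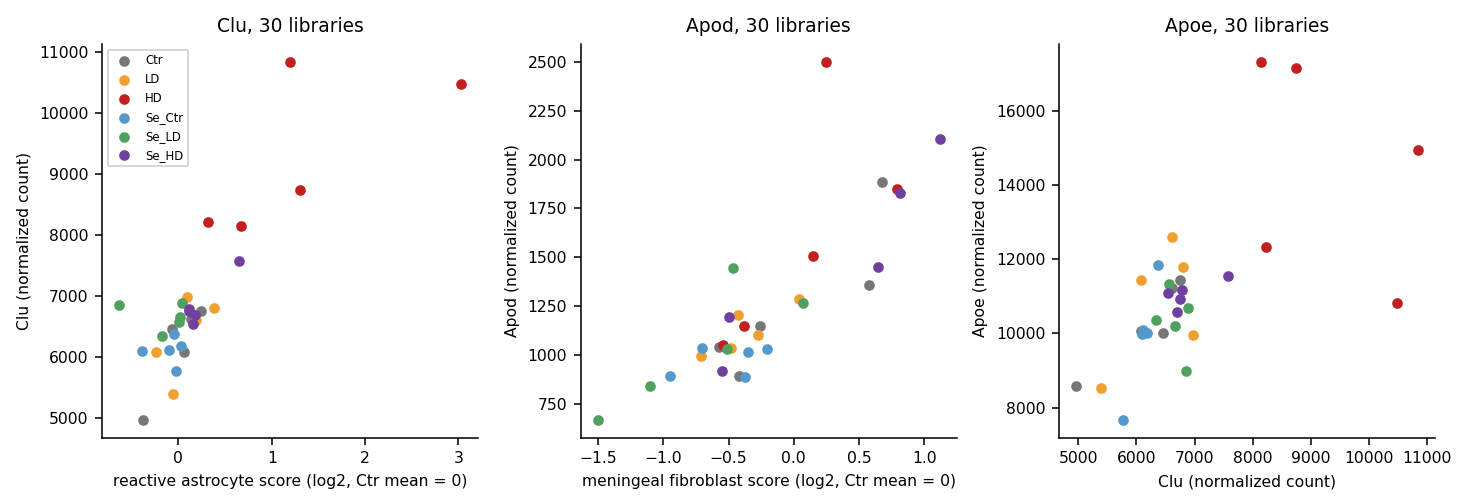
Normalized counts of Clu against the reactive astrocyte marker score (left), of Apod against the meningeal fibroblast marker score (middle) and of Apoe against Clu (right). Points are the 30 libraries in the colours of their groups, and scores are mean log2 values minus the Ctr mean. Apod follows the meningeal score across all groups (r = 0.86), and HD libraries stand to the right for Clu while their Apoe levels spread.

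Of the receptors, Lrp1, a large endocytic receptor for ApoE, had means of 3802 ± 256 normalized counts in Ctr, 3632 ± 422 in LD, 4171 ± 576 in HD, 3615 ± 161 in Se_Ctr, 3964 ± 340 in Se_LD and 3559 ± 478 in Se_HD mice. Its highest HD libraries were 9 and 21, with 4781 and 4788, and its log2 difference between HD and Ctr mice was 0.13 (SE 0.11). In Se_HD mice, 4 libraries held 3299, 3331, 3461 and 3300 and library 24 held 4407. Vldlr, which with Lrp8 also receives the neuronal guidance protein reelin, had group means between 825 and 909 normalized counts, and its log2 difference between Se_HD and Se_Ctr mice was 0.07 (95% interval -0.05 to 0.20). Sorl1, a sorting receptor that moves proteins between the Golgi and endosomes, had group means between 2743 and 3121, and its log2 difference between Se_HD and Se_Ctr mice was -0.12 (95% interval -0.33 to 0.09).

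Of the particle enzymes, Lcat, which esterifies cholesterol on the particle with ApoE as a cofactor in brain, had higher means in LD and HD than in Ctr mice. Ctr mice held 262, 225, 146, 224 and 202 normalized counts, LD mice 235, 228, 229, 354 and 298, and HD mice 299, 370, 305, 196 and 262. The log2 difference from Ctr mice was 0.43 (SE 0.17) for HD and 0.34 (SE 0.17) for LD mice, and the groups overlapped. For LD mice it was 0.22 without Ctr library 13. For HD mice it was 0.30 without Ctr library 13, the lowest, and 0.33 without HD library 9, the highest. In the selenium groups Lcat was level, at 213 ± 19.6 in Se_Ctr, 217 ± 32.3 in Se_LD and 214 ± 17.1 in Se_HD mice, and the log2 difference between Se_HD and Se_Ctr mice was 0.01 (95% interval -0.20 to 0.22). Pltp, which transfers phospholipid, had group means between 372 and 423 with SDs of 40.9 to 143. HD library 21, lowest of the HD libraries for Apoe and Lcat, was also lowest for Pltp, with 229. Over the 30 libraries, r of Pltp was 0.61 with the oligodendrocyte, 0.59 with the oligodendrocyte precursor and 0.56 with the choroid plexus score, and 0.67, 0.61 and 0.57 with group means removed. Its log2 difference between Se_HD and Se_LD mice, 0.07 (SE 0.18), was -0.24 once the choroid plexus score entered the fit. That between Se_LD and Se_Ctr mice, 0.08 (SE 0.18), was then 0.25, and both passed limma's unadjusted threshold in that fit.

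Counted over the 8 members, the calls at an unadjusted limma p under 0.05 stood as follows beside those over all genes tested. For the contrasts with Ctr, LD or HD libraries, which chose the members, the counts are no test and nothing is read from them. They were 3 for HD above Ctr mice (Clu, Apoe and Lcat; 8.34% of 20031 genes), 3 for HD above LD mice (Clu, Apoe and Apod; 6.96%) and 0 between LD and Ctr mice (3.01%). They were 0 between Se_Ctr and Ctr mice (4% of 21383 genes) and between Se_LD and LD mice (2.86%), and 4 for Se_HD below HD mice (8.38%). Between Se_HD and Se_Ctr mice 2 members were called, Apod and Clu, both higher, where 4.19% of 19679 genes were called. Se_LD against Se_Ctr mice gave none (3.31% of genes) and Se_HD against Se_LD mice gave Apod (4.94% of genes). Across all genes, none of the selenium contrasts within the diet had a gene at an adjusted p under 0.05, where 825, 652 and 973 genes had an unadjusted p under it. On recovered reads edgeR gave 0 in each, and DESeq2 gave 4 for Se_HD against Se_Ctr, 0 for Se_LD against Se_Ctr and 7 for Se_HD against Se_LD.

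Between the diets, at equal dose label, the values of the members are given as a description, since 1 side of each comparison is a group that chose them. Clu was lower in Se_HD than in HD mice by a log2 difference of -0.43 (SE 0.09), without overlap between the groups. Apoe differed by -0.37 (SE 0.13), with the Se_HD libraries between 10568 and 11553 and 4 of the 5 HD libraries above them all. Lcat differed by -0.39 (SE 0.15), and by -0.29 without HD library 9. Lrp1 differed by -0.23 (SE 0.09), and by -0.17 without HD library 21.

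The other members stood closer together in Se_HD and HD mice, Apod at -0.09 (SE 0.21), Vldlr at 0.08 (SE 0.09), Sorl1 at 0.06 (SE 0.11) and Pltp at 0.07 (SE 0.21). At the low dose, Lcat was the member farthest apart, at a log2 difference of -0.30 (SE 0.15) between Se_LD and LD mice, and at -0.19 without LD library 20. Between Se_Ctr and Ctr mice it was Apod, at -0.33 (SE 0.21), which was -0.18 without Ctr library 19 and -0.021 with the meningeal marker score as a covariate. Of the 8 meningeal markers, 2 were lower in Se_Ctr than in Ctr mice at an unadjusted limma p under 0.05, where 4% of all genes were called.

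The difference between the diets in the effect of the high dose, Se_HD minus Se_Ctr less HD minus Ctr, holds the HD and Ctr values that chose the members and is no test of them. It was -0.42 (SE 0.13) for Clu on the log2 scale, and between -0.46 and -0.34 without any 1 of the 20 libraries. It was -0.42 (SE 0.21) for Lcat and -0.31 (SE 0.18) for Apoe. Of the members, 1 was past the threshold for the high dose (4.77% of genes) and 0 for the low dose (3.75% of genes).

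**Figure D3:**
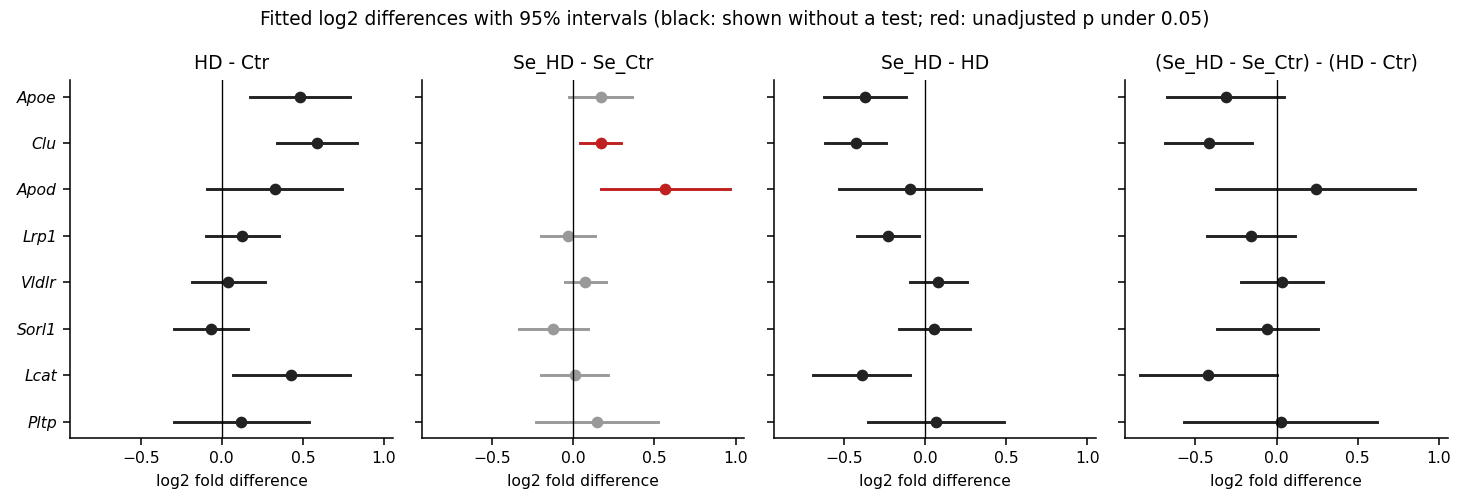
Log2 differences (x axes) of the 8 genes with 95% intervals in 4 contrasts. Contrasts that use libraries on which the genes were chosen are black and without a test, and in the Se_HD against Se_Ctr panel red marks an unadjusted limma p under 0.05 and grey the rest. Clu and Apod are red and higher in Se_HD than in Se_Ctr mice, and the black points of Clu, Apoe and Lcat lie below 0 for Se_HD against HD mice.

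Markers of microglia and of reactive astrocytes were higher in HD mice. The marker lists were chosen with earlier results known, so their calls are no independent test. Between HD and Ctr mice, 10 of 10 microglia, 8 of 8 activated microglia, 6 of 8 reactive astrocyte and 3 of 10 astrocyte markers were higher at an unadjusted limma p under 0.05, where 8.34% of all genes were called. None of the 10 oligodendrocyte markers passed, with 1 of 10 differences positive, and none of the 5 oligodendrocyte precursor markers. Of the neuronal markers, 2 of 6 inhibitory and 1 of 6 excitatory ones were lower. Between Se_HD and Se_Ctr mice, where 4.19% of all genes were called, 0 of 10 microglia, 1 of 7 activated microglia, 3 of 7 reactive astrocyte and 1 of 10 astrocyte markers were higher. The summed level of the 8 reactive astrocyte markers, among them Gfap, the astrocyte filament protein, was 2706 to 3277 normalized counts in Ctr libraries, 5593 to 43445 in HD, 2796 to 3807 in Se_Ctr and 3659 to 4549 in Se_HD libraries. That of the 10 microglia markers was 2417 to 2739 in Ctr, 3012 to 5559 in HD, 2349 to 3158 in Se_Ctr and 2622 to 3044 in Se_HD libraries. That of the 10 astrocyte markers was 50661 to 60507 in Ctr, 59135 to 66821 in HD, 49612 to 55754 in Se_Ctr and 51026 to 53847 in Se_HD libraries. The activated microglia marker Cst7 was at 0 in every Se_HD library and no other marker was at 0 throughout a group. The part of these cell types in the results for Apoe, Clu and Lcat was not tested.

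The correlations of Clu and Apoe with these markers are given as a description. Over the 30 libraries, r of Clu was 0.82 with the reactive astrocyte score and 0.84 with the activated microglia score, and 0.58 and 0.43 after group means were removed. With the astrocyte and microglia scores it was 0.72 and 0.73, and 0.23 and 0.22 after group means were removed. The endothelial and mural scores stood at 0.52 and 0.48 with group means removed. For Apoe the values with the reactive astrocyte and activated microglia scores were 0.47 and 0.60, and -0.13 and 0.00 after group means were removed. The score that Apoe followed most closely of 13 was that of oligodendrocyte precursors, with r of 0.68 both ways. Within the HD group, library 21 had the highest summed reactive astrocyte level, 43445, and the lowest Apoe. Libraries 9 and 15, the highest for Apoe, had 14497 and 6852.

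Among the members, Apoe, Lcat and Pltp varied together from mouse to mouse, and Sorl1 and Vldlr ran opposite to them. With group means removed, r was 0.67 between Apoe and Lcat, 0.68 between Apoe and Pltp and 0.54 between Lcat and Pltp. It was -0.60 between Apoe and Sorl1 and -0.67 between Lcat and Vldlr. Clu and Apod formed a separate pair with r of 0.52, and Apoe and Clu, at 0.68 over all libraries, were at 0.24 once group means were removed. The exons of Apoe, Lcat and Pltp sum to 1980, 1342 and 2562 bases and those of Sorl1 and Vldlr to 11321 and 10068. Those of Lrp1 are the longest, at 17717 bases. With group means removed, r of Lrp1 was 0.15 with Apoe, 0.15 with Pltp and -0.21 with Lcat. Apod (2577 bases) had r of -0.01 with Apoe and -0.03 with Pltp, and Clu (3438 bases) 0.24 and 0.22. The part of transcript length in these correlations was not tested.

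**Figure D4:**
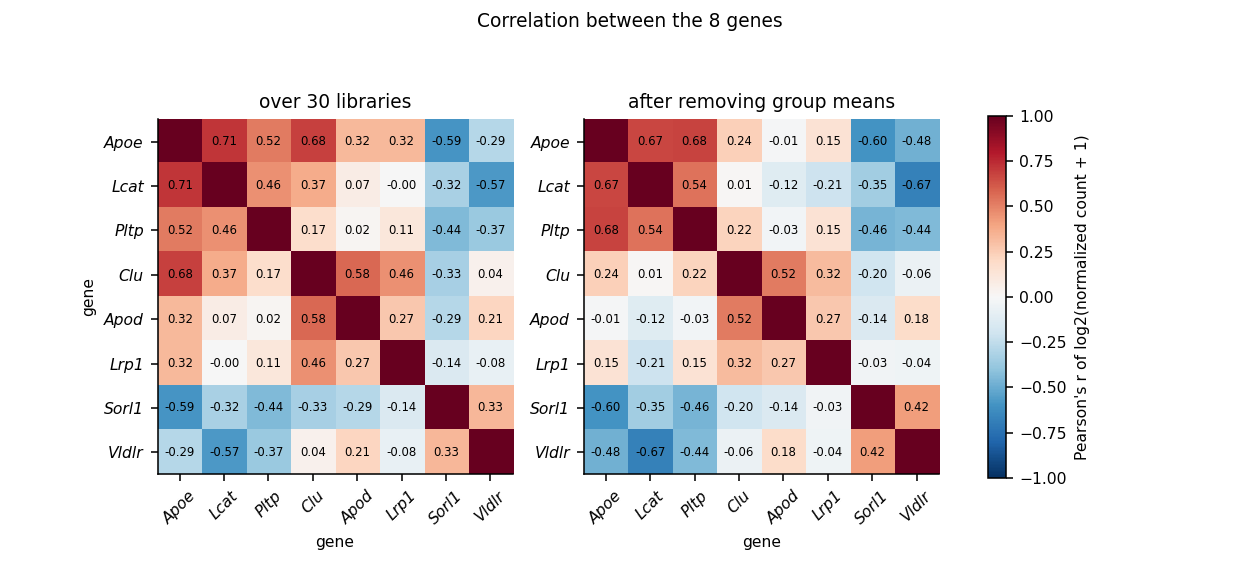
Pearson's r between the 8 genes of log2 normalized counts (1 added to each), across 30 libraries (left) and after each group's mean was removed (right), with the value in each cell and colour from -1 (blue) to 1 (red). Apoe, Lcat and Pltp stay positive to each other and negative to Sorl1 and Vldlr on both sides, and the value of Apoe with Clu falls from 0.68 to 0.24.

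Outside the list, 9273 genes averaged 100 or more normalized counts, and those most like Apoe over the 30 libraries were Rpl13a (r = 0.81, and 0.84 with group means removed), Adrm1 (0.78 and 0.70), Npc2 (0.77 and 0.52), Gpr37l1 (0.77 and 0.62) and Gstm1 (0.77 and 0.59). Clu was most like Pbxip1 (0.87 and 0.65), Gfap (0.85 and 0.44) and the complement gene C4b (0.84 and 0.46). Among the genes most like Apod were Aebp1 (0.87 and 0.82) and Cp (0.85 and 0.81), and Cp is also on the reactive astrocyte list. The receptors were most like other genes again, Lrp1 like Sbno2, Lgi4 and Tln1 (0.68 to 0.70), Vldlr like Rev3l, Phf20l1 and Usp34 (0.80 to 0.81) and Sorl1 like Zfr (0.87) and Atf6 (0.83). Lcat was most like Zfp513, Akt1s1 and Adam15 (0.80 to 0.81), and Pltp like Bsg, Lgi3 and Itgb4 (0.77 to 0.80).

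Of the other lipoprotein and sterol genes, a list of 60, 55 were in the table. The list was chosen with earlier results of these data known, so its calls and p-values are no independent test. Between HD and Ctr mice 6 of 54 tested were higher and 2 lower at an unadjusted limma p under 0.05, where 8.34% of all genes were called. Trem2, the microglial lipid receptor that binds ApoE, was higher by a log2 difference of 1.18 (SE 0.27, limma adjusted p = 0.109). Apob, the protein of very-low-density particles, stood at 1.72 (SE 0.70, limma adjusted p = 0.480), but had 93 reads over all 30 libraries, so its difference rests on few reads. Npc2, which hands cholesterol out of lysosomes together with Npc1, was higher by 0.63 (SE 0.11, adjusted p = 0.0167), Soat1, which esterifies cholesterol inside cells, by 0.41 (SE 0.16) and the lysosomal lipase Lipa by 0.32 (SE 0.14). The nuclear receptor Rxrg was higher by 0.70 (SE 0.33). The sterol exporter Abcg1 was lower by -0.25 (SE 0.11) and Dab1, the adaptor of Vldlr and Lrp8 in reelin signalling, by -0.21 (SE 0.09). Adjusted p-values of these last 5 genes lay between 0.468 and 0.583. The median log2 difference of the list was 0.06, and that of all genes tested was 0.00671.

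Between Se_HD and Se_Ctr mice 2 of 54 genes of the list passed, where 4.19% of all genes were called. They were Gpihbp1, the capillary anchor of lipoprotein lipase, at a log2 difference of 1.34 (SE 0.53) on 34 reads over all 30 libraries, and the sorting receptor Sorcs1, at 0.31 (SE 0.14), and both had a limma adjusted p of 0.99956. Se_LD against Se_Ctr mice gave 1 higher and 1 lower (3.31% of all genes), and Se_HD against Se_LD mice 1 higher and 4 lower (4.94%). Between Se_HD and HD mice 6 of 55 were lower and 2 higher, where 8.38% of all genes were called: Trem2 by -1.03 (SE 0.22, adjusted p = 0.0245), Npc2 by -0.48 (SE 0.11, adjusted p = 0.0507), Soat1 by -0.49 (SE 0.14), Apob by -1.89 (SE 0.62), Lrp4 by -0.26 (SE 0.09) and Srebf1 by -0.26 (SE 0.13) were lower, and Gpihbp1, at 1.57 (SE 0.46), and Mttp, at 0.35 (SE 0.12), higher. Adjusted p-values of the other 6 lay between 0.161 (Soat1) and 0.594 (Srebf1). In the interaction contrast 4.77% of all genes were called. The high-dose log2 difference was lower in the selenium groups for Apob (-2.46, SE 0.87, on 93 reads over all 30 libraries), Trem2 (-1.06, SE 0.31) and Npc2 (-0.54, SE 0.16). It was higher there for Gpihbp1 (1.41, SE 0.65). Limma adjusted p-values of these genes were 0.546 to 0.997.

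**Figure D5:**
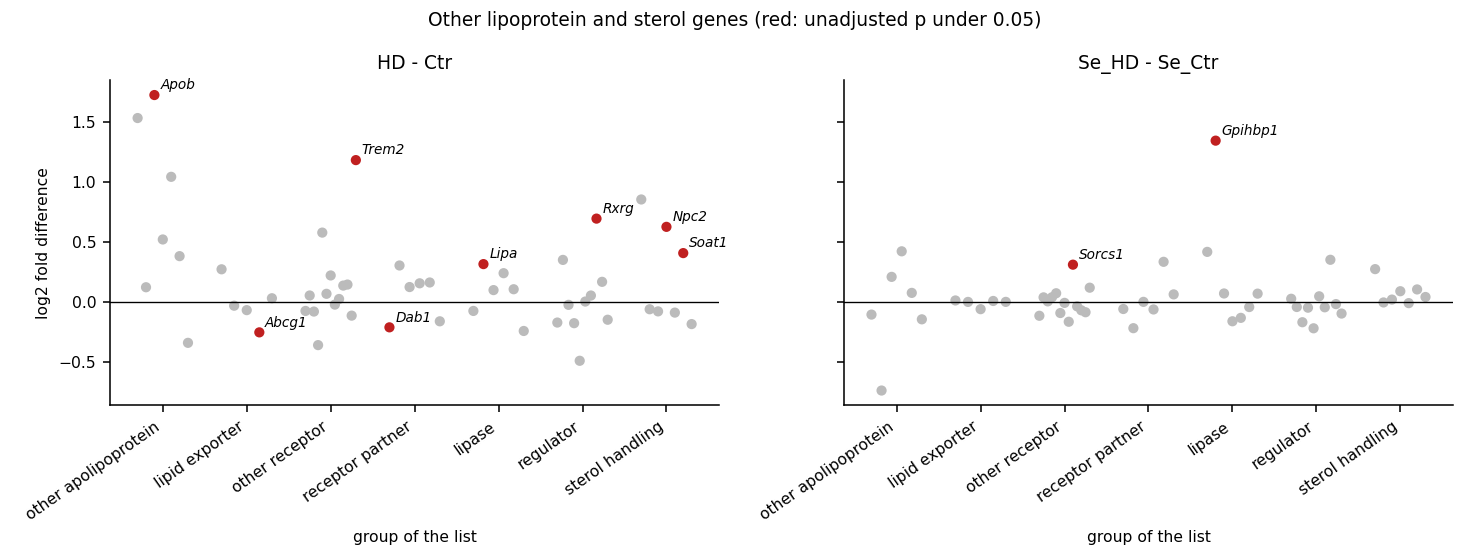
Log2 differences (y axis) of the other lipoprotein and sterol genes by group of the list (x axis), HD against Ctr mice on the left and Se_HD against Se_Ctr mice on the right. Each point is a gene, and those with an unadjusted limma p under 0.05 are red and named. On the left 8 genes are red, and on the right 2.

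At the low dose 1 gene of the list was higher and 1 lower, where 3.01% of all genes were called. Lpl, lipoprotein lipase, was higher in LD than in Ctr mice by a log2 difference of 0.29 (SE 0.13) and Rxra, a partner of the liver X receptors that drive Apoe transcription, was lower by -0.33 (SE 0.11), both with a limma adjusted p of 0.99933. Between HD and LD mice 7 genes were higher, among them Ch25h (2.09, SE 0.68, on 84 reads over all 30 libraries), the exporter Abca1 (0.40, SE 0.16) and Rxra (0.33, SE 0.11), with adjusted p-values of 0.382 to 0.561, and none lower, where 6.96% of all genes were called. No gene of the list passed the unadjusted threshold between Se_Ctr and Ctr mice (4% of all genes).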

How the data were processed

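RNA of 30 hippocampi (TruSeq stranded mRNA, 90 ng input, single-end reads of 75 bases) was processed by the authors with Trim Galore 0.4.2, HISAT2 2.0.4 to NCBIM37 and featureCounts, per the study's methods and the submitters' processing notes. The deposited values are a signal: the authors' read counts per gene divided by the DESeq2 size factor of each library, after genes with a row sum under 10 reads were removed. Whole reads were recovered for 100% of values within 0.1. Library labels gave the groups, and replicates were numbered in accession order.

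Values were put on the log2 scale with a pseudocount of 1 and modelled in limma 3.58.1 (R 4.3.3), with trend and 1 coefficient per group, over the 15 libraries of a diet for contrasts within it and over all 30 for contrasts between diets. Genes with a sum of at least 10 in the fit were tested. A gene was called at an unadjusted p under 0.05, the study's threshold, and adjusted p-values are Benjamini-Hochberg over all genes tested. Marker scores are mean log2 values minus the Ctr mean.

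The members and gene lists were chosen with earlier results of these data known, so contrasts of the members with Ctr, LD or HD libraries are descriptions. All 8 members were named, with the 5 genes most like Apoe, the 3 most like each other member (some of which are not reported here), and listed genes at p under 0.05. The settings varied were the pseudocount (0.1 or 10), the filter (a mean of 10 or more, or none), quantile normalization or TMM factors, no trend, edgeR 4.0.16 and DESeq2 1.42.0 on recovered reads, other libraries in the fit, library numbers in runs of 6 as a factor, a choroid plexus covariate, an added F test, and leaving out each library. A meningeal covariate, centring within 20 bins of exon length and the exact permutation tests were added after seeing the data. Tested on simulated counts for HD against Ctr (19968 genes), limma called 96 of 100 genes changed by a log2 fold of 1 and 79 of 100 changed by 0.5, and 73 and 18 at an adjusted p under 0.05. Promoters came from RefSeq (GRCm38.p6). Tables were made with Python 3.11.15, pandas 2.3.3 and numpy 2.4.6, and figures with matplotlib 3.10.9.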

Additional observations from a re-analysis of the deposited data

Results flagged for a closer look

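In 48 groups of 5 libraries (8 genes in 6 groups), 2 held a library far from the other 4, where chance gives about 2.4. Clu in Se_HD library 30 was one, with 7567 normalized counts against 6538 to 6780 in the other Se_HD libraries, and the gap to the nearest library was 0.751 of the range (critical value 0.71). Lrp1 in Se_HD library 24 was the other, with 4407 against 3299 to 3461, and the gap was 0.835 of the range.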

How the results depend on the processing

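Of 2272 member values under alternatives, 2189 kept their side of the threshold, with the same direction or within the spread, 54 passed where the reported value did not, 24 no longer passed, 3 that never passed moved by more than the spread, and 2 reversed. Of values that did not pass, 129 changed sign. The 2 are Pltp between Se_HD and Se_LD mice, -0.24 with the choroid plexus covariate, and Apod in the same contrast, -0.064 with the meningeal covariate. The cause was not tested. Values from Ctr, LD or HD libraries are counted here as descriptions.

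Counts of members past the threshold moved as follows. HD against Ctr: 4 with the meningeal covariate and 2 with the F test. HD against LD: 2 with no trend, the F test, the choroid plexus or the meningeal covariate and 4 with other libraries in the fit. LD against Ctr: 1 with other libraries in the fit or the choroid plexus covariate. Se_HD against Se_Ctr: 1 with other libraries, 0 with the meningeal covariate and 3 with exon length bins. Se_HD against HD: 3 with quantile normalization, other libraries or the F test. Se_LD against Se_Ctr: 1 with a pseudocount of 0.1, a mean of at least 10, TMM, no trend, edgeR, DESeq2, the meningeal covariate or exon length bins, and 3 (Clu, Lrp1 and Pltp) with the choroid plexus covariate. Se_HD against Se_LD: 2 (Lrp1 and Pltp, without Apod) with the choroid plexus and 0 with the meningeal covariate. Se_Ctr against Ctr: 1 with other libraries. Se_LD against LD: 1 with DESeq2 or the meningeal covariate. Interaction for HD: 2 with quantile normalization, TMM, edgeR, DESeq2, other libraries or the choroid plexus covariate. Leaving out 1 library gave 2 to 4 for HD against Ctr, HD against LD and Se_HD against HD, 0 to 1 for LD against Ctr, Se_LD against Se_Ctr and Se_LD against LD, 2 to 3 for Se_HD against Se_Ctr, 0 to 2 for Se_HD against Se_LD, 1 to 3 for the HD interaction and 0 for the others. Library numbers in runs of 6, each with 1 library of every group, taken as a block left the number of members past the threshold as it was in all 11 contrasts. Lcat, at 86 to 444 reads, carries the most counting error.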
